A study of Mus musculus with 4 samples.

Results

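A set of 10 inflammatory signalling genes was followed cell by cell in PDGFRb+ intestinal stromal cells (IntSCs) of LATS1/2 KO mice. They were the secreted cytokines Il6, Lif, Il33, Il34 and Csf1, the adhesion molecules Icam1 and Vcam1, the NF-kB feedback inhibitors Nfkbia and Tnfaip3, and the interleukin-1 receptor Il1r1, chosen by name from the 18619 genes of the expression matrix. All 10 were detected, with between 119 UMIs (Lif) and 19957 UMIs (Nfkbia) in the library. The series holds 4 samples in 3 groups. The 1 library analysed here, LATS1/2 KO 1w, came from adult C57BL/6J mice that carried a Pdgfrb-Cre-ERT2 driver, a tdTomato reporter and floxed Lats1 and Lats2, and it was made 1 week after the first tamoxifen. Not analysed here were the 2 wild type (WT) libraries, which had the same driver and reporter but intact Lats1 and Lats2, and the library of LATS1/2 KO 2w, so no value below compares KO with WT. The deletion and the red label were limited to cells that expressed Pdgfrb. The muscle and serosa layers and the Peyer's patches had been removed, the rest of the small intestine was digested with enzymes, and tdTomato+ PDGFRb+ cells were sorted for a droplet-based kit that reads the 3′ end of transcripts.

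As background, NF-kB is a family of transcription factors held in the cytoplasm by IkB proteins. Signals from receptors for interleukin-1, TNF or microbial products lead to the loss of IkB, and NF-kB then enters the nucleus and switches on cytokines, adhesion molecules and its own inhibitors, Nfkbia (the gene of IkB-alpha) and Tnfaip3 (A20) among them. In the gut, fibroblasts answer such signals and in turn feed macrophages, lymphocytes and the epithelium. Immediate early genes (IEGs) such as Fos and Jun are switched on within minutes of many stimuli, the digestion of a tissue included. The study set its villi fibroblast cluster vFB1 apart from vFB2 by IEGs, named dissociation as a possible source, and also saw Fosb+ cells in intact tissue. The questions addressed here were where in the stroma the 10 genes were found, and which of them went with the IEGs.

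In the mm10 build with GENCODE M21 all 10 are annotated as protein coding. Il6 (ENSMUSG00000025746), an inducer of the acute phase response, lies at chr5:30013114-30019981 on the + strand. Lif (ENSMUSG00000034394), a relative of Il6 that signals through the same gp130 chain, lies at chr11:4257557-4272514 (+). Il33 (ENSMUSG00000024810), a nuclear alarmin released from damaged cells, lies at chr19:29925114-29960718 (+). Il34 (ENSMUSG00000031750, chr8:110741829-110805924, -) and Csf1 (ENSMUSG00000014599, chr3:107741048-107760469, -) encode the ligands of the macrophage receptor CSF1R. Icam1 (ENSMUSG00000037405, chr9:21015985-21028817, +) and Vcam1 (ENSMUSG00000027962, chr3:116109949-116129688, -) encode surface proteins that leukocyte integrins bind. Nfkbia (ENSMUSG00000021025) lies at chr12:55489410-55492647 (-) and Tnfaip3 (ENSMUSG00000019850), whose product removes ubiquitin from the signalling complexes, at chr10:19000910-19015657 (-). Il1r1 (ENSMUSG00000026072), the signalling receptor of interleukin-1, lies at chr1:40225080-40317257 (+). Predicted genes overlap Il34, Icam1 and Vcam1 on the opposite strand and Il1r1 on the same strand, and how the authors' counting treated such reads is not given in the sources used here.

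The windows around the start sites of these genes are shown because 4 members were called higher along the IEGs across cells and the others were not. RefSeq (GRCm38.p6) start-site windows, from 250 bases before to 50 bases after the start, were given for 8 of the 10 genes, all but Il34 and Vcam1. They were searched on both strands for the letters GGAAATTCC and GGGANTTTC, forms of the sequence that NF-kB binds, and for TGANTCA and TGACGTCA, the letters bound by FOS and JUN dimers and by CREB. The 250 bases before the start are written here 5′ to 3′ on the strand of the gene, with the matches in capitals.
Il6 (chr5:30012864-30013113, + strand): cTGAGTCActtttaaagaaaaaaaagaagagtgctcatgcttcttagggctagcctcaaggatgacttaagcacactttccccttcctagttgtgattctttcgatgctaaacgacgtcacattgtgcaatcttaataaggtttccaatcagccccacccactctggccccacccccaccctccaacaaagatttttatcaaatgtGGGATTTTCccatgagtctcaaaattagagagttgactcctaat
Icam1 (chr9:21015690-21015939, + strand): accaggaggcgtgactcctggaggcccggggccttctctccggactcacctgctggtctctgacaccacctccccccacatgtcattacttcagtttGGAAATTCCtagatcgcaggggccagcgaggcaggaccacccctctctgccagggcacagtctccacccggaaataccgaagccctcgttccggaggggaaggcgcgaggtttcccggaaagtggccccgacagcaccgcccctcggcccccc
Nfkbia (chr12:55492648-55492897, - strand): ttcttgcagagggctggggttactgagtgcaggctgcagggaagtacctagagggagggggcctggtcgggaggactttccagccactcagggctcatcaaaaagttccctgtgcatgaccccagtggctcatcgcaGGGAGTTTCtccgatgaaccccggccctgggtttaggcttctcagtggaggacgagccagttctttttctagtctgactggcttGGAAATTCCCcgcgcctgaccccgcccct
Tnfaip3 (chr10:19015411-19015660, - strand): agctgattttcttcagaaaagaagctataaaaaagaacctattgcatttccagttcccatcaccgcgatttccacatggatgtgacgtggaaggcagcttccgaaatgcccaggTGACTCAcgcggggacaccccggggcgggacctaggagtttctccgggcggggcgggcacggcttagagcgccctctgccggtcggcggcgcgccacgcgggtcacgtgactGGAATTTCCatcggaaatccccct
Csf1 (chr3:107760470-107760719, - strand): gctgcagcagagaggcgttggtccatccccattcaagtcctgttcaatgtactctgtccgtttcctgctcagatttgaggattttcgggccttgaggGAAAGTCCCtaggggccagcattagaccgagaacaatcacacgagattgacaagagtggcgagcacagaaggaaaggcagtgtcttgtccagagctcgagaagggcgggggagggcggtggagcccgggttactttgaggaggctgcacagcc
Il33 (chr19:29924863-29925112, + strand): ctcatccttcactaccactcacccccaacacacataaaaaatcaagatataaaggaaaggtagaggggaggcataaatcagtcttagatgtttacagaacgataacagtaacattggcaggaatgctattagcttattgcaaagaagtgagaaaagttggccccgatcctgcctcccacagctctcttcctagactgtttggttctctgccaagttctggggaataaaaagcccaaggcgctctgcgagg

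Il6, Icam1, Nfkbia and Tnfaip3, the genes that followed the IEGs, each hold at least 1 match to the NF-kB letters in these windows. Il6 holds GGGATTTTC 44 bases before its start and TGAGTCA 249 bases before it. Icam1 holds GGAAATTCC 153 bases before its start. Nfkbia holds GGAAATTCC 29 bases before its start, overlapped by GAAATTCCC (the reverse of GGGANTTTC) 1 base further on, and GGGAGTTTC 113 bases before it. Tnfaip3 holds GGAATTTCC, the reverse of GGAAATTCC, 24 bases before its start and TGACTCA 136 bases before it. The letters were not confined to these 4 genes: Csf1, which stayed within 2-fold along the IEGs, holds GAAAGTCCC, the reverse of GGGANTTTC, 153 bases before its start, and Lif holds TGACTCA. The windows of Il33 and Il1r1 hold none of the 4 sets of letters. Of all 32851 windows in the table, 0.317% hold GGAAATTCC, 1.11% hold GGGANTTTC, 7.81% hold TGANTCA and 1.79% hold TGACGTCA. Counted by gene, since a gene can have several windows, the shares are 0.381%, 1.29%, 8.97% and 2.03% of 27025 genes, and 3, 3, 3 and 0 of the 8 member genes, in that order. A match describes the letters in these windows and not a bound site.

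The library held 4108 cells and 46054627 UMIs, with a median of 10726 UMIs (range 1965 to 35727) and 3331.5 genes per cell. Cells were clustered without the 10 members, the IEGs, the NF-kB pathway genes and the sex-linked genes, and were named by marker genes. Villi fibroblasts with all or 3 of the markers Adamdec1, Shisa3, Serpina3n and Dkk2 made up 4 clusters, called vFB1-2-like together (2681 cells, 65.3% of all). FB4-like cells (692; Ackr4, Grem1), FB5-like cells (205; Sox6, Foxl1, Pdgfra), SMC-like cells (76; Cnn1, Actg2, Myh11) and vFB3-like cells (45; P2rx1, Mmp10, Fhl2) carried all the markers of their lists. Cluster 5 (340 cells) held 1 of the 4 villi markers and the vFB3 marker Fhl2 among its leading genes, and cluster 9 (69 cells) held the 6 mural cell markers Vtn, Rgs5, Notch3, Mcam, Cspg4 and Higd1b with Ano1, a marker of interstitial cells of Cajal, among its leading genes, so that both are called by number. The clusters were rebuilt, and any difference from the study's own cell types may come from that.

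Lats1 was at 14.2 UMIs per 1000000 (CPM) and Lats2 at 53.5 CPM in the library. The 3′ tags may lie outside the deleted part, and these levels are no check of the KO. Pdgfrb, whose driver marked the sorted cells, was at 533 CPM and between 274 and 1858 CPM in every set of cells. All 4108 cells held a Pdgfrb UMI. Whether cells without one were left out before deposit is not given, so these levels are no check of the sort. Summed over 6 genes, immune markers stood between 6.64 and 57.6 CPM in the 7 sets, with Cd3e at 0 UMIs in the library. Endothelial markers summed to at most 15.8 CPM with Pecam1 at 0 UMIs, epithelial markers to at most 0.80 CPM. The authors had depleted such cells and later removed immune and endothelial cells by clustering, so these sums are no independent check of purity. With 1 library there is no replicate and no test: p-values are not given, and every interval below is a 95% interval that covers counting error only, exact except for the weighted ratios described further on. A gene is called higher or lower between 2 sets of cells where the ratio of its CPM is at least 2-fold and the interval of the ratio excludes 1, among genes with 20 or more UMIs in the 2 sets together. Free RNA was bounded with Y-linked genes, which reached 8.64% of their library level in the 2004 cells with 5 or more Xist UMIs. For each gene that share of its own library level is the most that free RNA and mixed droplets could give by this measure.

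Il6 was detected in 420 of the 4108 cells and stood highest in FB4-like cells. It reached 29.2 CPM (25.7 to 33.1; 251 UMIs in 131 cells) in FB4-like and 18.1 CPM (16.6 to 19.7; 520 UMIs in 271 cells) in vFB1-2-like cells. Levels were 11.96 CPM in SMC-like cells (9 UMIs in 3 cells), 10.6 CPM in cluster 9 (6 UMIs in 3 cells), 2.75 CPM in cluster 5 and 2.00 CPM in FB5-like cells. In the 45 vFB3-like cells Il6 had 0 UMIs, and the limit that a count of 0 allows, taken as 3 UMIs, is 5.16 CPM or 6.67% of cells with a UMI, at least 3.51-fold lower than the level of vFB1-2-like cells. The step from FB4-like to vFB1-2-like cells had an interval that excluded 1 (ratio 1.61, 1.38 to 1.88), while vFB1-2-like, SMC-like and cluster 9 cells did not differ beyond counting error. The levels of FB5-like cells and cluster 5 were close to the bound on free RNA for Il6, 1.51 CPM. Lif, of the same cytokine family, had only 119 UMIs in the library, ran from 0.80 CPM in FB5-like to 3.73 CPM in FB4-like cells, and none of its neighbouring sets differed beyond counting error.

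Il33 separated the fibroblast classes over a wide range, with FB4-like cells at the top and vFB3-like cells at the bottom. Its level was 293 CPM (282 to 305) in FB4-like, 191 CPM (161 to 225) in SMC-like, 111 CPM (107 to 115) in vFB1-2-like and 88.0 CPM (76.8 to 101) in FB5-like cells. Cluster 9 held 38.7 CPM, cluster 5 held 14.2 CPM (10.9 to 18.2) and vFB3-like cells 1.72 CPM from 1 UMI. Each step in this order had an interval that excluded 1, and the last level lay under the free RNA bound of 11.6 CPM. Thinned to 5000 UMIs per cell, Il33 was seen in 61.1% of FB4-like and 32.4% of vFB1-2-like cells but in 6.82% of cluster 5 (81.4%, 48.5% and 14.7% of all cells without thinning).

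Il34 had nearly the reverse order of Il33. It reached 194 CPM (160 to 234) in vFB3-like, 169.7 CPM (154 to 187) in FB5-like and 127 CPM (99.1 to 159.5) in cluster 9. It was 25.9 CPM in cluster 5, 10.97 CPM (9.79 to 12.3) in vFB1-2-like, 3.99 CPM in SMC-like and 1.86 CPM in FB4-like cells. The first level did not differ from the second beyond counting error (ratio 1.15, 0.923 to 1.41), and the FB4-like level lay under the free RNA bound of 1.98 CPM. The study placed FB5 under the villus epithelium and FB4 in the submucosa. FB5-like cells held an Il34 UMI in 56.5% of cells at 5000 UMIs, against 4.45% of vFB1-2-like and 0.587% of FB4-like cells (81.0%, 8.99% and 2.02% without thinning; median depths 11829, 10208 and 12079 UMIs).

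Csf1, the other CSF1R ligand, varied by less than 2-fold among the fibroblast sets. Its level was 231 CPM in vFB3-like, 159 CPM in vFB1-2-like, 148 CPM in cluster 5, 139.8 CPM in FB4-like and 130.1 CPM in FB5-like cells, and 86.2 CPM in cluster 9 and 74.4 CPM in SMC-like cells. The vFB3-like level was above that of vFB1-2-like cells (ratio 1.45, 1.21 to 1.73), and from there to FB5-like cells no neighbour in this order differed beyond counting error. Csf1r itself had 37 UMIs in the library (0.803 CPM), so the receptor of both ligands was nearly absent from these sorted cells, from which immune cells had been removed. Il1rl1, the receptor of Il33, had 0 UMIs.

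Both adhesion molecules were found in every set of cells, in different orders. Icam1 was highest in vFB1-2-like (424.5 CPM) and FB4-like cells (388 CPM), and lower in cluster 9 (158 CPM), SMC-like cells (137 CPM), cluster 5 (94.7 CPM), FB5-like cells (94.4 CPM) and vFB3-like cells (74.0 CPM). Among the last 3 no neighbours differed beyond counting error. Vcam1 was highest in vFB3-like cells (411 CPM, 361 to 467), then in cluster 5 (216 CPM) and vFB1-2-like cells (142 CPM), and it stood at 63.3 CPM in cluster 9, 59.8 CPM in FB4-like, 44.4 CPM in FB5-like and 39.9 CPM in SMC-like cells. The first 3 steps of Vcam1 had intervals that excluded 1. So the set with the highest Vcam1 had the lowest Icam1.

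The feedback inhibitors, like Icam1, stood higher in FB4-like and vFB1-2-like than in FB5-like cells, but vFB3-like cells, last for Icam1, were not last for them. Nfkbia stood at 595 CPM in cluster 9, 507 CPM in FB4-like, 477 CPM in vFB1-2-like, 267 CPM in vFB3-like, 251 CPM in SMC-like and 199.8 CPM in cluster 5 cells, and was lowest, 141 CPM, in FB5-like cells. Tnfaip3 stood at 26.2 CPM in FB4-like, 18.8 CPM in vFB1-2-like, 15.5 CPM in vFB3-like, 10.6 CPM in cluster 9, 6.64 CPM in SMC-like, 5.28 CPM in cluster 5 and 3.60 CPM in FB5-like cells. For Tnfaip3 the first step alone had an interval that excluded 1. The receptor Il1r1 was at 134 CPM in vFB3-like, 124 CPM in vFB1-2-like, 106 CPM in cluster 9 and 93.1 CPM in cluster 5. It was lower, 52.4 CPM, in FB5-like cells, with 51.8 CPM in SMC-like and 48.8 CPM in FB4-like cells. Of the steps between neighbours for Il1r1, that from cluster 5 to FB5-like cells (ratio 1.78, 1.46 to 2.18) was the one whose interval excluded 1.

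**Figure D1:**
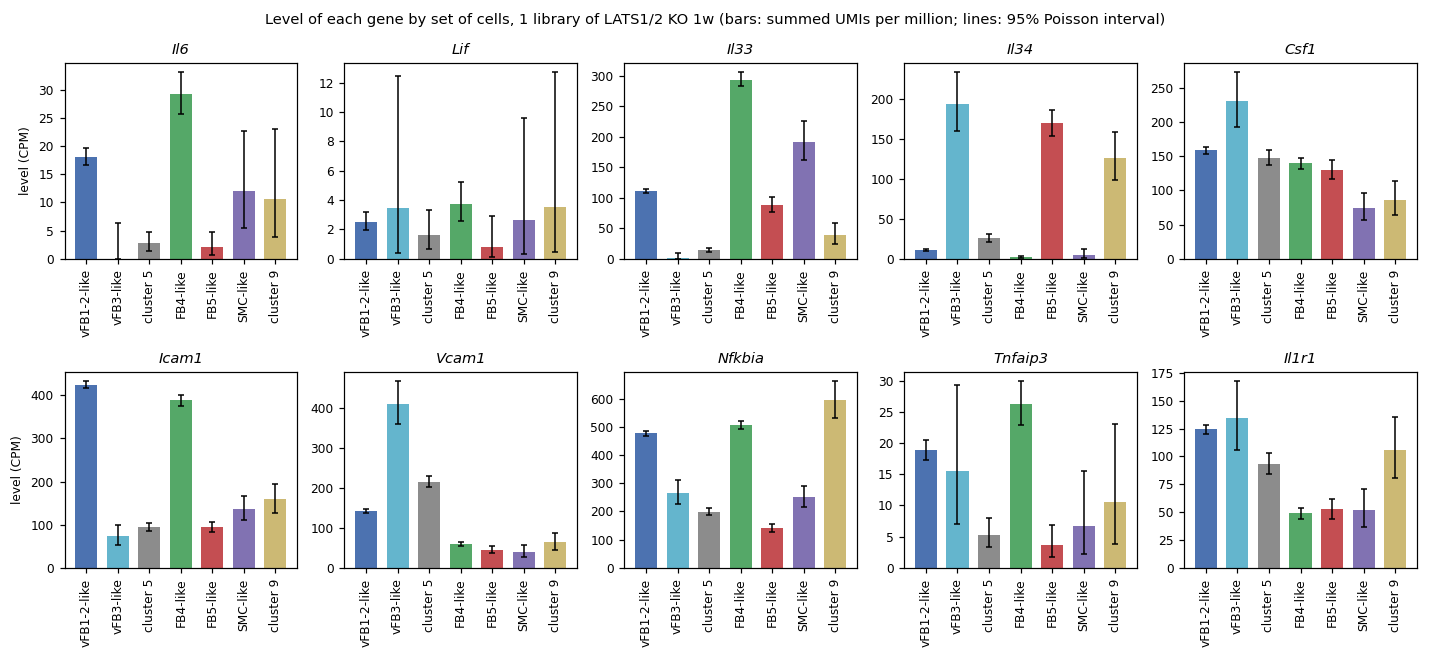
Level of each of the 10 genes (bars, CPM, with lines for 95% counting intervals) in the 7 sets of cells of the 1 library. Il34 is highest in vFB3-like cells, FB5-like cells and cluster 9, Il33 in FB4-like cells, and Icam1 in vFB1-2-like and FB4-like cells.

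Set against vFB1-2-like cells, each class differed in its own subset of the 10 genes. In FB4-like cells 1 of 10 members was called higher (Il33, ratio 2.64, 2.51 to 2.79) and 3 lower (Il34 at 0.17 times, Il1r1 at 0.393 times, Vcam1 at 0.422 times), 4 of 10 against 10.7% of all genes compared. FB5-like cells had Il34 15.5-fold higher (13.3 to 17.9) and 6 members lower, namely Il6, Tnfaip3, Icam1, Nfkbia, Vcam1 and Il1r1 with ratios between 0.111 and 0.422, against 16.0% of genes called in either direction. In vFB3-like cells Il34 was 17.7-fold higher (14.2 to 22.0) and Vcam1 2.90-fold higher (2.54 to 3.31), and Il33, Il6 and Icam1 were called lower, where 13.5% of genes were called. All of these shares of members, from 40% to 70%, were above the share of all genes.

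Cluster 5 had Il34 2.36-fold higher and 5 members lower (Il33 0.128, Il6 0.152, Icam1 0.223, Tnfaip3 0.281 and Nfkbia 0.419), 6 of 10 against 9.46% of genes. SMC-like cells had 5 members lower and 0 higher, with ratios from 0.281 (Vcam1) to 0.469 (Csf1), against 11.7% of genes called. The call of Tnfaip3 there rests on 5 UMIs and was lost in cells with and in cells without an Xist UMI. That of Il1r1 was lost in cells with 8000 to 14000 UMIs. The mean of per-cell levels, which has no interval to meet, gave 9 calls in SMC-like cells. Cluster 9 had Il34 11.6-fold higher and Il33, Icam1 and Vcam1 lower, 4 of 10 against 14.3% of genes. Its calls of Icam1 and Vcam1 were lost in cells with at most 5% mitochondrial UMIs, and that of Vcam1 also in cells with an Xist UMI. The median ratio over the 10 genes was 0.316 for FB5-like cells, 0.442 for SMC-like cells and 0.518 for cluster 5, where that of all genes was 1.01, 1.02 and 0.94. It was 0.986 in FB4-like and 1.08 in vFB3-like cells, near that of all genes (0.924 and 1.11), and 0.572 in cluster 9, where that of all genes was 1.03. The SMC-like cells and cluster 9 were the shallowest sets, with medians of 7909.5 and 6793 UMIs per cell.

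The members were then followed along the IEGs. Within each class the cells were ranked by the share of their UMIs in Fos, Fosb, Jun, Junb, Egr1, Atf3 and Ier2 and cut into 5 equal groups, called quintiles. In vFB1-2-like cells the lowest quintile (537 cells) held at most 0.0278% of its UMIs in these genes and the highest quintile (536 cells) at least 0.811%. The share was continuous, with 73 and 174 cells within 10% of these cuts, so the quintiles are ranges and not cell types. The depth was alike at both ends (medians of 10185 and 10210.5 UMIs). The median mitochondrial share fell along the quintiles, from 5.22% to 4.54% of UMIs here and from 4.58% to 3.77% in FB4-like cells, and in cells with at most 5% alone 4 members were called higher in each of the 2 classes. The clusters differed too, as cluster 4, which holds Fosb among its leading genes, made up 0.372% of the lowest and 59.7% of the highest quintile, and cells with an Xist UMI went from 55.9% to 39.2%.

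Il6, Icam1 and the 2 feedback inhibitors went up with the IEGs in vFB1-2-like cells, and the other 6 genes stayed within 2-fold. Il6 had 9, 5, 54, 194 and 258 UMIs in the quintiles from lowest to highest, or 1.60, 0.888, 9.36, 32.2 and 45.6 CPM. The first pair was at the free RNA bound, so that Il6 was near background in the cells with the fewest IEG transcripts. Icam1 stood at 100.4, 119.5, 340.1, 641 and 906 CPM, Nfkbia at 208.5, 225, 364, 631 and 946.5 CPM, and Tnfaip3 at 7.997, 9.59, 16.6, 24.7 and 34.6 CPM. For each of these genes the lower pair of quintiles lay close together and the climb began at the middle quintile. Between the lowest and the highest quintile the ratio was 28.5 (14.8 to 63.1) for Il6, 9.02 (8.27 to 9.86) for Icam1, 4.54 (4.26 to 4.84) for Nfkbia and 4.33 (3.12 to 6.13) for Tnfaip3. With its lowest quintile near background, the size of the Il6 ratio is poorly fixed: it ran from 16.8 to 473 over the alternatives that gave a value, the last with the free RNA bound subtracted. These 4 of 10 members were called higher, against 4.72% of all genes, and 0 were called lower, against 1.75%. Of the 4, Il6 had enough UMIs through the highest quintile alone, while Icam1, Nfkbia and Tnfaip3 had enough at both ends. The median ratio was 1.40 over the members and 1.004 over all genes.

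The remaining cytokines, Vcam1 and Il1r1 stayed within 2-fold in all vFB1-2-like cells together. Il1r1, the receptor, ran from 121 to 131 CPM across the quintiles (ratio 1.08, 0.972 to 1.201), and Vcam1 from 148 to 135 CPM (ratio 0.914, 0.828 to 1.01). Csf1 stood at 145 CPM in the lowest and 155 CPM in the highest quintile (ratio 1.07, 0.969 to 1.17) with its highest value, 178.5 CPM, in the fourth. Vcam1 thus did not go with Icam1, the other adhesion molecule, along the IEGs. Il33 went from 109.8 to 95.9 CPM (ratio 0.874, 0.777 to 0.982), while the interval included 1 both in cells with an Xist UMI (1.09, 0.931 to 1.27) and in cells without (0.946, 0.793 to 1.13). Il34 went from 15.3 to 9.01 CPM (ratio 0.59, 0.409 to 0.843). In cells with an Xist UMI alone Il34 was called lower (0.494, 0.305 to 0.786), and in those without it was not (0.743, 0.407 to 1.34). Lif had 11 UMIs in the lowest and 20 in the highest quintile, and its interval (0.826 to 4.18) includes both no difference and a 4-fold one.

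**Figure D2:**
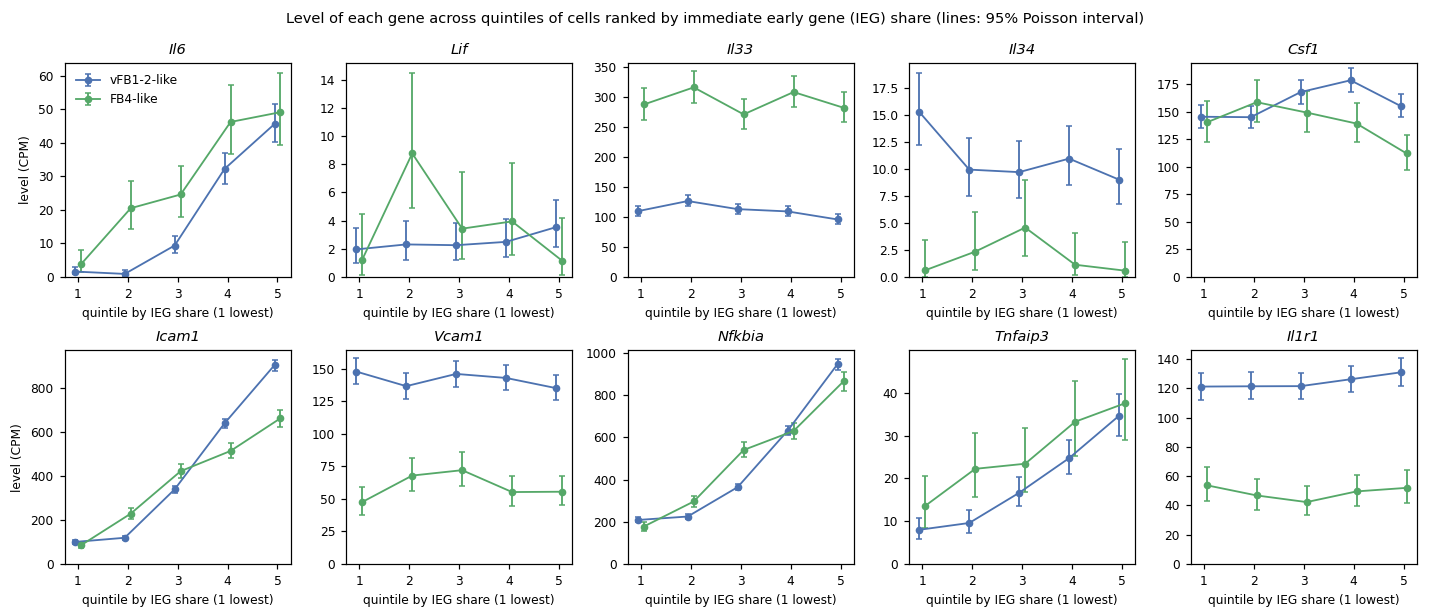
Level of each gene (CPM, with 95% counting intervals) in the quintiles of cells ranked by the share of UMIs in 7 IEGs, for vFB1-2-like and FB4-like cells. Il6, Icam1, Nfkbia and Tnfaip3 climb from left to right in both, while Il33, Csf1, Vcam1 and Il1r1 stay within 2-fold.

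Shares of cells gave the same picture at equal depth. Thinned to 5000 UMIs, Icam1 was seen in 36.9% of the lowest and 94.1% of the highest quintile of vFB1-2-like cells, and Nfkbia in 54.1% and 97.1%. Il6 was seen in 0.571% and 14.4% and Tnfaip3 in 3.24% and 14.6% of these cells. These are shares of cells with a UMI at this depth, and not of cells that express the gene.

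FB4-like cells had Il6, Icam1, Nfkbia and Tnfaip3 called higher as well. Il6 stood at 3.71, 20.5, 24.6, 46.2 and 49.1 CPM over their quintiles, Icam1 at 84.7, 229, 423, 515 and 664 CPM, Nfkbia at 177, 296, 540.1, 630.0 and 865 CPM, and Tnfaip3 at 13.6, 22.2, 23.4, 33.2 and 37.6 CPM. From the lowest to the highest quintile the ratios were 13.3 for Il6, 7.84 for Icam1, 4.88 for Nfkbia and 2.76 for Tnfaip3. The Il6 ratio here ran from 4.24 to 30.1 over the alternatives, the last in cells without an Xist UMI and from 1 UMI in the lowest quintile (5.004 to 1228). These were 4 of the 8 members with enough UMIs, against 5.29% of all genes, and Il6 had enough through the highest quintile alone here too. Il33, at 288 and 283 CPM in the end quintiles, did not move with the IEGs in the class where it was highest. Among FB4-like cells with an Xist UMI the ratio for Il33 was 1.44 (1.21 to 1.73), and in those without it was 0.862 (0.717 to 1.04), neither past 2-fold.

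In cluster 5 the IEG share was low, and even its highest quintile began at 0.0647% of UMIs, although 54.4% of its cells held a Junb UMI. There 1 of 7 members was called higher, Icam1 at 64.6 and 206 CPM (ratio 3.18), against 2.76% of all genes. Nfkbia went from 174 to 293 CPM (ratio 1.68), and Il6 had 2 UMIs in the lowest and 8 in the highest quintile, too few to compare.

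Because the villi clusters were spread unevenly over the quintiles, the ranking was repeated inside each. In cluster 1, 4 of 9 members were called higher (Il6 24.9, Icam1 8.19, Nfkbia 4.99, Tnfaip3 3.62), against 4.43% of genes. In cluster 2, the same 4 of 9 were called higher (Il6 13.9, Icam1 4.54, Tnfaip3 4.22, Nfkbia 2.40), against 3.62% of genes, and Il34 was lower at 0.289 times. In cluster 6, 4 of 8 members were called higher, against 5.25% of genes: Tnfaip3 (6.94), Icam1 (6.87), Nfkbia (2.31) and Il6. There Il6 had 0 UMIs in the lowest and 26 in the highest quintile, and 11 of the 29 UMIs of the cluster lay in 1 cell. It had enough UMIs through the highest quintile alone, so its call in cluster 6 is set aside. Cluster 4 was the exception: 1 of 9 was called higher, Nfkbia at 2.38, against 1.79% of genes, with Icam1 at 1.91, Il6 at 1.59 and Tnfaip3 at 1.29. Its cells already stood high, with 834 CPM of Icam1 and 35.1 CPM of Il6 over the whole cluster, where clusters 1, 2 and 6 held 399.5, 240.1 and 190.2 CPM of Icam1 and 18.1, 8.43 and 9.33 CPM of Il6. The directions also held in vFB1-2-like cells with and without an Xist UMI, where the ratio was 7.24 and 11.9 for Icam1, 4.85 and 4.04 for Nfkbia and 3.02 and 5.70 for Tnfaip3. Il6 had 8 and 155 UMIs in the lowest and highest quintile of cells with an Xist UMI (ratio 18.8, 9.32 to 44.4). In cells without, it had 0 and 113 UMIs, at least 36.9-fold higher against a limit of 3 UMIs. In both groups Il6 had enough UMIs through the highest quintile alone, so its values carry less weight than those of Icam1, Nfkbia and Tnfaip3.

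**Figure D3:**
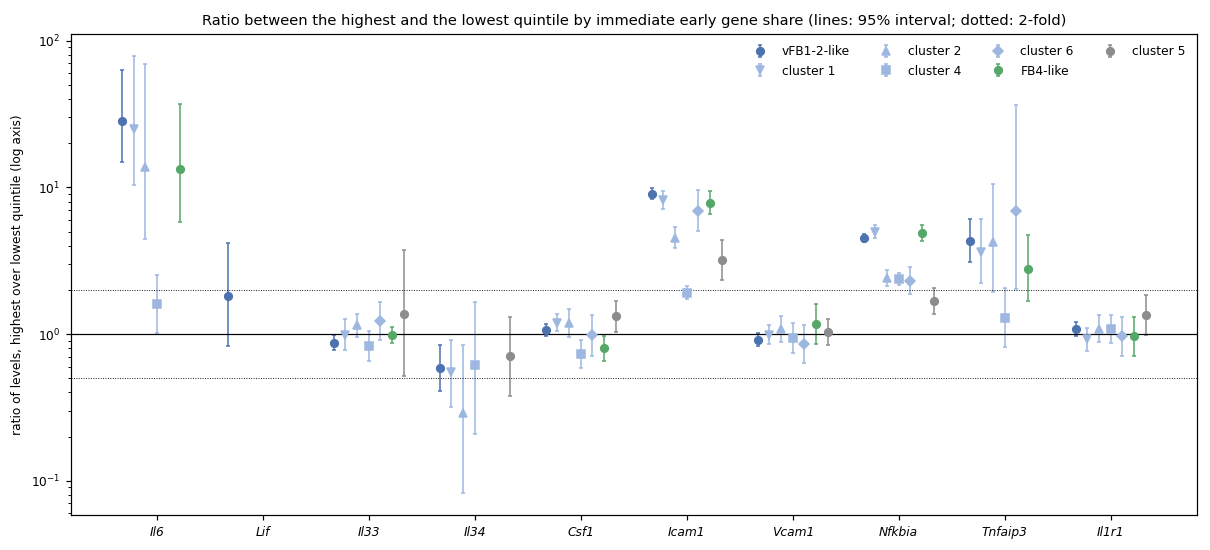
Ratio between the end quintiles of IEG share, highest over lowest (log axis, 95% counting intervals) for each gene in vFB1-2-like cells, FB4-like cells, cluster 5 and the 4 villi clusters. A gene with 0 UMIs in the lowest quintile has no point. Il6, Icam1, Nfkbia and Tnfaip3 lie past 2-fold in vFB1-2-like cells, FB4-like cells and clusters 1 and 2, while the 1 call is Nfkbia in cluster 4 and Icam1 in cluster 5. Il34 lies below 1, at 0.289 in cluster 2.

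The classes differed in IEG level, so the class comparison was repeated at like IEG shares. The villi cells were therefore weighted to the IEG share of each other class, an alternative added after the first values were seen. The intervals of these ratios are approximate: they combine the counting error of both sides on the log scale and take the weights as fixed. In cluster 5, 70.2% of UMIs came from cells in the lowest range of villi cells. After weighting, cluster 5 kept 1 of its 6 calls, Il33 at 0.125 times (0.0956 to 0.162), and 1 of 10 is near the 6.45% of all genes called under the same weighting. There Icam1 came to 0.713, Nfkbia to 0.864, Tnfaip3 to 0.567, Il34 to 1.90 and Il6 to 1.07. So the low Il33 of cluster 5 was as large at the same IEG share. The Il6 ratio sets 2.75 CPM against 2.56 CPM in the weighted villi cells (0.519 to 2.03), both near the free RNA bound of 1.51 CPM. Whether the low Il6 of cluster 5 remains at the same IEG share is therefore not settled.

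Other classes kept more of their calls under this weighting, 5 of 10 members in FB5-like, 4 in vFB3-like and 4 in FB4-like cells, where 14.5%, 12.3% and 10.3% of all genes were called. FB5-like cells kept Il34 at 13.9-fold (11.7 to 16.5), Vcam1 at 0.311, Tnfaip3 at 0.322, Il6 at 0.397 and Il1r1 at 0.43, and Icam1 (0.507) and Nfkbia (0.517) came to just inside 2-fold. The vFB3-like cells kept Il34 at 16.0-fold, Vcam1 at 2.88-fold, Il33 at 0.0147 and Icam1 at 0.465, and Il6, still at 0 UMIs, was no longer called. FB4-like cells kept all 4 of their calls (Il33 2.69, Il34 0.181, Il1r1 0.389, Vcam1 0.425). In cluster 9, whose IEG share was high, Il6 (0.379) and Tnfaip3 (0.426) were called lower as well, 6 of 10 members against 13.9% of all genes. Nfkbia, which was called in neither FB4-like cells nor cluster 9, changed sides. In FB4-like cells it went from 1.06 (1.03 to 1.10) to 0.885 (0.855 to 0.916) and in cluster 9 from 1.25 (1.12 to 1.39) to 0.926 (0.83 to 1.03). So its higher levels in these 2 sets were not seen at the same IEG share. The lead of FB4-like cells also shrank for Tnfaip3, from 1.39 (1.19 to 1.63) to 1.17 (0.997 to 1.37), and for Il6, from 1.61 to 1.198 (1.03 to 1.39). Calls of Il33, Vcam1 and Il1r1 were kept under the weighting, and those of Il34 were kept in all classes but cluster 5.

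**Figure D4:**
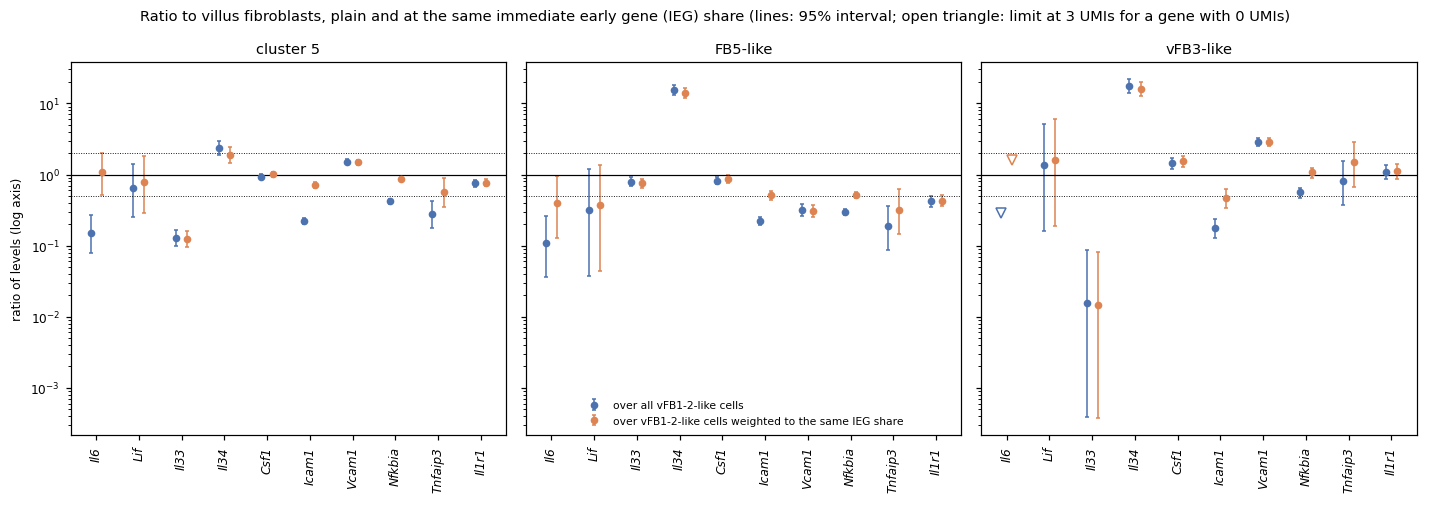
Ratio of cluster 5, FB5-like and vFB3-like cells to vFB1-2-like cells (log axis, 95% counting intervals, approximate for the weighted ratios, open triangles for the limit that 3 UMIs set where a gene had 0) for the 10 genes, before and after the villi cells were weighted to the same IEG share. In cluster 5 the points of Icam1, Nfkbia, Tnfaip3 and Il6 move towards 1 and that of Il33 does not.

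LATS1 and LATS2 restrain YAP and TAZ, and Amotl2 is a known target gene of these coactivators. Among the villi clusters, cluster 1 stood above the pooled Amotl2 level of 146 CPM with 259.7 CPM, and clusters 2, 4 and 6 stood below it with 50.6, 79.2 and 50.9 CPM. Il33 was the 1 member of 10 called between the 2 sides, with 54.7 CPM in cluster 1 and 153 CPM in the others (ratio 0.358, 0.328 to 0.39), against 5.57% of all genes. The single call, 10% of members, is near that background. Il34 was called as well under 5 alternatives, with ratios from 1.77 at a fold of 1.5 to 2.40 at a finer clustering, and Csf1 at a fold of 1.5. Taken 1 by 1, the low clusters 2, 4 and 6 each stood above cluster 1 in Il33, at 176, 129.6 and 142 CPM. Within the lowest quintile of IEG share the ratio was 0.371 and within the highest 0.422. Il34 (1.77) and Csf1 (1.60, 1.51 to 1.70) were higher on the Amotl2-high side without reaching 2-fold in the comparison as made here, and the other 7 genes lay between 0.791 and 1.18. All of these are clusters of 1 library in which every cell carried the same genotype label, so the comparison is between clusters and not between treatments.

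Whether the members were found in the same cells was counted at 5000 UMIs. Among vFB1-2-like cells Nfkbia was seen in 82.4% (80.6 to 84.2) of cells with an Icam1 UMI and in 63.5% (60.2 to 66.6) of cells without. In FB4-like cells these shares were 82.5% (78.7 to 85.9) and 70.4% (63.9 to 76.3). Within single quintiles of vFB1-2-like cells the shares were 50.5% and 56.2% in the lowest, 80.3% and 70.7% in the middle, and 97.3% and 93.5% in the highest quintile, each with overlapping intervals. Such overlap does not show that the shares were alike. In the highest quintile 31 cells had no Icam1 UMI and nearly all cells held Nfkbia, which leaves little room for a gap. Icam1 was seen in 88.7% of cells with an Il6 UMI and 63.9% of cells without, with 78.9% and 66.7% in the middle and 93.3% and 94.2% in the highest quintile. The intervals overlapped in both, and in the highest quintile nearly all cells held Icam1, so that the same limit holds. In FB4-like cells Icam1 was seen in 68.7% of cells with and 67.1% of cells without an Il6 UMI. Among vFB1-2-like cells Vcam1 went the other way with Il33, seen in 42.2% of cells with and 48.7% of cells without an Il33 UMI, with 49.4% and 54.4% in the lowest, 41.6% and 46.5% in the middle and 35.0% and 48.5% in the highest quintile. Only in the highest of these 3 did the intervals not overlap.

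The wider pathway was followed with a list of 51 genes, chosen with earlier results of these data known. It was made up of NF-kB subunits, their kinases and adaptors, inhibitors and feedback genes, receptors, inducing cytokines, other cytokines and cytokine feedback genes. Along the IEGs in vFB1-2-like cells 8 of the 42 with enough UMIs (19%) were called higher and 0 lower, beside 4.72% and 1.75% of all genes. Because earlier results were known when the list was made, a share above that of all genes is no independent support. The group of inhibitors and feedback genes held 4 of the 8 called genes, and the group name does not say which way each acts. Nfkbiz, an IkB protein that acts in the nucleus, stood at 3.20 and 95.3 CPM in the lowest and highest quintile (29.8-fold, 18.7 to 50.6). The others were Birc3 (3.16-fold), Zc3h12a, an RNase that degrades Il6 mRNA (3.12-fold), and Bcl3 (2.50-fold). Of the 5 subunit genes 1 was called, Relb (4.55-fold), while 0 of the 10 kinases and adaptors and 0 of the 12 receptors were. Ptgs2, the inducible prostaglandin synthase, was 13.7-fold higher (5.15 and 70.7 CPM), Socs3, an inhibitor of gp130 signalling, 10.0-fold higher (38.2 and 383 CPM), and the gp130 cytokine Il11 3.15-fold higher. The genes at the low end, Tlr3 (0.705), Lifr (0.844) and Il1r2 (0.88), stayed within 2-fold. With 4.72% of all genes called, 0 of 10 and 0 of 12 are near that share. In FB4-like cells 9 of 38 (23.7%) were called higher, beside 5.29% of all genes, led by Nfkbiz (9.02-fold), Socs3 (7.70-fold) and Relb (4.56-fold), and 0 lower. They included the kinase Map3k14 (2.62-fold, 1.23 to 6.04) and the receptor chain Il1rap (2.24-fold, 1.198 to 4.41).

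**Figure D5:**
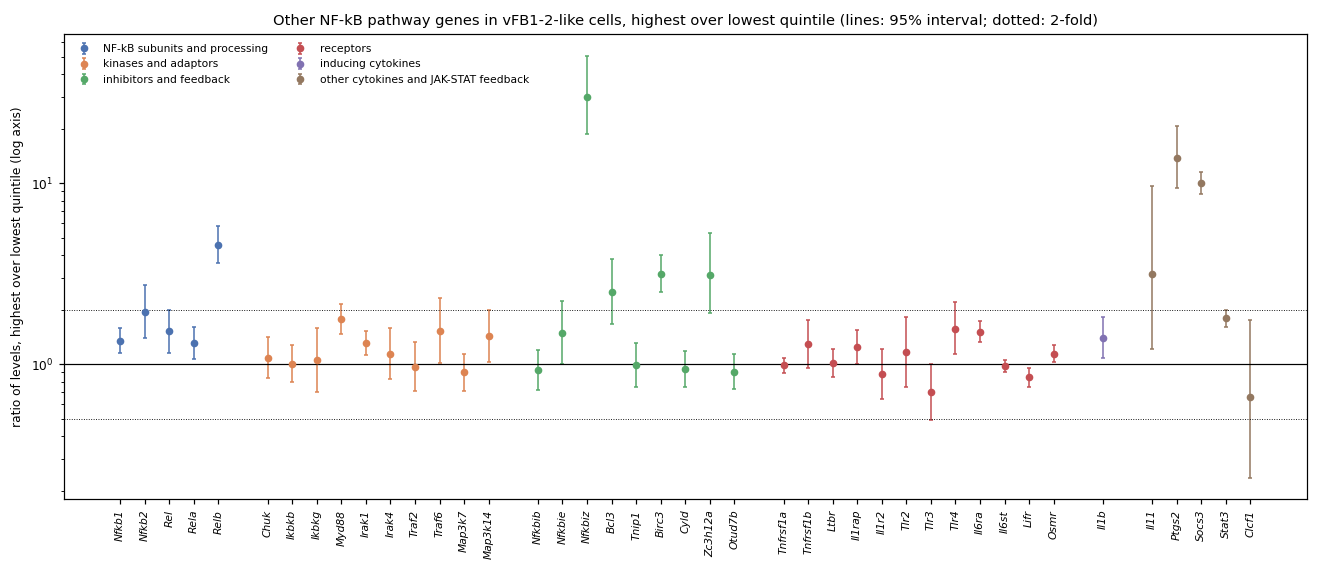
Ratio between the end quintiles of IEG share, highest over lowest (log axis, 95% counting intervals) for the pathway genes with enough UMIs, by group, in vFB1-2-like cells. Nfkbiz, Ptgs2 and Socs3 lie at 10-fold or above, while no kinase, adaptor or receptor was called.

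Single pathway genes were also called between classes. In vFB3-like cells Lifr, a receptor of Lif, stood at 685 CPM against 83.1 CPM in vFB1-2-like cells (8.23-fold, 7.39 to 9.16). In FB4-like cells 1 pathway gene of 44 was called higher, Nfkbiz (2.01-fold), and 5 lower, among them Il1b (0.161), the decoy receptor Il1r2 (0.207) and Ptgs2 (0.382). These 6 of 44 (13.6%) are near the 10.7% of all genes called there. The share of pathway genes called was 18.6% in vFB3-like cells (13.5% of all genes), 16.3% in FB5-like cells (16.0%), 23.3% in cluster 9 (14.3%) and, among SMC-like cells, 20.9% (11.7%). In cluster 5 it was also 23.3% (9.46%), with 10 of 43 lower and 0 higher. Il6st, which encodes the gp130 chain, was at 342 CPM in the Amotl2-high cluster and 168 CPM in the others (2.04-fold, 1.94 to 2.14), and Il1b, a ligand of Il1r1, was at 8.67 and 43.9 CPM (0.197 times, 0.159 to 0.242). These were 2 calls of 43 (4.65%), near the 5.57% of all genes. Il1b had 904 UMIs in the library, 830 of them in vFB1-2-like cells, and it led the genes of cluster 2. The immune marker sum stayed at or under 57.6 CPM in every set, and its part in the Il1b counts was not tested. Tnf (9 UMIs) and Il1a (4 UMIs) were hardly detected.

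Over 20 sets of cells, the classes split by IEG share, the profiles closest to each member were found among 8182 genes. The sets come from 1 library and share class and IEG level, so these values describe likeness alone. Closest to Il6 were Cdkn2aip (Pearson's r = 0.96), Ier3 and Hsp90aa1, and closest to Icam1 were Tra2b (0.971), Ier3 and Kdm6b. Nfkbia was closest to Kdm6b (0.964) and Tnfaip3 to Eif1 (0.961). Il33 was closest to Ly6a (0.971), Il34 to Tpm2 (0.987), Vcam1 to Frzb (0.984) and Il1r1 to Zfp536 (0.945). Csf1 and Lif had no gene this close, with 0.789 for Parp3 and 0.731 for Per3. Among the members, r was 0.96 between Icam1 and Nfkbia and 0.94 between Il6 and Icam1, and the lowest values were -0.73 between Il34 and Tnfaip3, -0.71 between Il34 and Nfkbia and -0.67 between Il33 and Vcam1. For Il33 and Il34, whose order over the classes was nearly reversed, r was -0.36.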

How the data were processed

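Sorted PDGFRb+ cells were profiled with 10x Genomics 3′ chemistry. Per the labels and methods, the authors aligned to mm10 with Cell Ranger 3.0.2 and used Seurat (3.0.1 in the submitters' processing notes). They kept cells with 1000 to 6000 genes and at most 7% mitochondrial UMIs, and removed immune and endothelial cells. The authors deposited natural log values, taken of UMIs scaled to 10000 per cell plus 1. Here 100.00% of the 13789523 nonzero values gave whole UMIs (tolerance 0.001), and these counts were used, where the design had named raw counts. Total depth was 46054627 UMIs over 4108 cells. Columns are marked M or F, a split by Xist of 1 library, and were not treated as samples. The labels give no number of animals for the library, and the paper's text names a pair of mice per group. There were 0 columns of other samples.

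Clusters were made with Seurat 5.3.0 in R 4.3.3 (2000 variable genes, 30 components, Louvain, resolution 0.5), with 74 genes kept out. A cluster was named where at least 3 markers of 1 list reached 10% of cells and a fraction of 0.25 of the highest cluster level. It was also required that no other list had more genes than this list among the 10 leading genes of the cluster. This naming rule was set after cluster levels were seen and was changed once. No doublets were removed in the main values. Levels are summed UMIs per 1000000, with exact Poisson, Clopper-Pearson or conditional binomial intervals (scipy 1.17.1), and approximate log-scale intervals for weighted ratios. The members, gene lists and the rule for named genes (all 10 members, the 3 pathway genes at each end with at least 100 UMIs, and the 3 closest profiles per member) were chosen with earlier results of these data known. Other pathway genes named were called genes, chosen after their values were seen. The rule for calls was also run on simulated sums with known fold changes and counting error alone, which says nothing about differences between animals. Alternatives changed the clustering (resolution, regression, genes kept out), the cells (depth, mitochondrial share, Xist, doublet score), the IEG list and groups, the fold, the level, the thinning and free RNA, and their effect is given in the closing section.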

Additional observations from a re-analysis of the deposited data

How the results depend on the processing

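The total of 31 member calls over the 6 class comparisons, and the counts along immediate early genes in vFB1-2-like and FB4-like cells (4 in each), stayed within 1.5 times under each alternative that gave a value. In the main values Il6 was among the 4 of each class and had enough UMIs through the highest quintile alone. Totals from fewer than 6 comparisons are 26 without cluster 5 (resolution 0.2, or members kept in the clustering), 24 without SMC-like cells (at most 5% mitochondrial UMIs) and 28 without cluster 9 (8000 to 14000 UMIs), the set left out having no value there. Over 1144 recomputed member ratios, 956 moved by no more than their counting interval, 187 moved further, and 51 crossed 1, of which 1 had been called. Of the 521 ratios of called members 507 kept the call and 14 lost it. With villi cells weighted to the same IEG share, which was added after the data were seen, Il6 in cluster 5 went from 0.152 to 1.07 times and the calls of cluster 5 from 6 to 1. The mean of per-cell levels gave 9 calls for SMC-like cells (5 from summed UMIs). Cells with at most 5% mitochondrial UMIs gave 2 calls for cluster 9 (4 from all cells). The Amotl2 comparison, with 1 call, gave 2 at resolution 0.2, at resolution 1.0, at 5% mitochondrial UMIs and with the free RNA bound subtracted, and 3 with a fold of 1.5. For these counts the cause was not tested. The gap in Nfkbia between cells with and without Icam1, 19.0 percentage points, was 21.7 at 2000 UMIs and 11.99 without thinning. At resolution 0.2 cluster 5 joined the vFB1-2-like cells, and with the members, pathway genes and IEGs kept in the clustering no cluster matched it and 717 cells stayed unnamed, so it has no values there. No paired analysis was possible because the values come from 1 library and no test was made. Lif (119 UMIs), Il6 outside vFB1-2-like and FB4-like cells, and every value in vFB3-like, SMC-like and cluster 9 cells are limited by depth or by the number of cells.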
